A study of Mus musculus with 20 samples.

Results

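The genes described are the 7 class 3 semaphorins of the mouse, Sema3a to Sema3g, and 3 receptor genes, Nrp1 and Nrp2, which encode the neuropilins, and Plxnd1, which encodes plexin D1. They were picked by gene symbol alone, within a choice of gene families made with earlier results of these data known, and are 10 of the 27179 genes in the table. All 10 averaged 10 normalized reads or more over the libraries and were among the 13057 genes tested. Sema3e averaged under 10 in DPP4- cells and Sema3g under 10 in DPP4+ cells, so each passed through its level in the other gate.

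Class 3 semaphorins are secreted guidance proteins, known from axon repulsion and also from the patterning of blood vessels. Most of them bind a neuropilin, which holds the ligand while a plexin partner carries the signal into the cell. Sema3e can bind plexin D1 without a neuropilin. Neuropilins also serve as co-receptors for growth factors of the VEGF family. In fat, where nerves and vessels lie among the progenitors, plexin D1 has been linked to body fat distribution in zebrafish.

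The libraries were bulk RNA-seq of PDGFRb+ adipose progenitor cells of the inguinal white fat depot, freshly isolated from male C57BL/6 mice and sorted for the surface protein DPP4. The 4 groups were DPP4+ cells of mice held at 6 °C for 24 h, DPP4+ cells of mice at 22 °C, DPP4- cells of mice at 6 °C for 24 h and DPP4- cells of mice at 22 °C, with 5 libraries each. All groups shared the PDGFRb+ gate, the depot, the sex and the strain, and no transgene is named in the labels. The labels give neither the age of the mice nor whether animals were pooled, so p-values measure the spread between these libraries, which may be technical.

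Libraries held 8.49 to 18.8 M reads (1 M is 1e+06). Dpp4 itself averaged 10035 ± 2091 normalized reads in DPP4+ cells and 61.3 ± 42.4 in DPP4- cells at 6 °C (SD, n = 5). At 22 °C it averaged 8546 ± 1158 in DPP4+ cells and 67.9 ± 21.6 in DPP4- cells, and the gates did not overlap at either temperature. Pdgfrb was present in every library, with DPP4+ means of 1505 ± 80.7 normalized reads at 6 °C and 2942 ± 226 at 22 °C. The DPP4- means were 4124 ± 543 at 6 °C and 4126 ± 333 at 22 °C. Defining markers of other cells were low, with group means of 20.6 to 73.6 normalized reads for endothelial Pecam1 and Cdh5 and 4.95 to 22.3 for pericyte Rgs5. They were 3.06 to 19.8 for leukocyte Ptprc, 0.131 to 8.02 for Schwann cell Sox10 and 0.434 to 1.48 for mesothelial Msln. Some other genes of the same marker lists were higher. Endothelial Tek had group means of 888 to 2983, and the 13 pericyte and smooth muscle markers summed to 4274 to 12515 per library. The 10 macrophage and dendritic cell markers summed to 111 to 770 per library, and the 8 Schwann cell markers to 191 to 737. Adipoq, a gene of mature fat cells, averaged 230.2 and 332 normalized reads in DPP4+ cells at 6 °C and 22 °C and 33.2 and 20.1 in DPP4- cells at 6 °C and 22 °C. In bulk libraries, fewer cells of a type and less RNA per cell cannot be told apart.

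Normalized reads are gene counts divided by 1 factor per library, and a log2 difference below is a fitted difference of log2(normalized reads + 1). A gene counts as called at a Benjamini-Hochberg adjusted p under 0.05 (limma) over all genes tested.

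Most ligand genes differed between the gates. Sema3c, Sema3d and Sema3e were far higher in DPP4+ cells, Sema3a and Sema3b were moderately higher, and Sema3f was lower, at both temperatures. Sema3g was near the lower end of measurement everywhere. At 22 °C all 10 genes were called between DPP4+ and DPP4- cells, 6 higher and 4 lower, against 38.7% of all tested genes called higher and 36.2% called lower. At 6 °C 5 were higher and 4 lower, against 38.5% and 35.7%, so a call between the gates was common among all genes. The libraries of the gates did not overlap for 5 higher and 3 lower genes at 22 °C, against 33.4% and 31.4% of all genes. At 6 °C they did not overlap for 4 higher and 4 lower genes, against 29.8% and 27.4%. The median log2 difference of the 10 genes was 0.64 at 22 °C and -0.15 at 6 °C, beside 0.030 and 0.032 over all tested genes.

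Sema3e, on chromosome 5 (Entrez 20349, chr5:14025276-14256689, plus strand), was the ligand with the widest gap between the gates. Its 5 libraries of DPP4+ cells at 6 °C held 1094, 1527, 1309, 1119 and 2099 normalized reads, and those of DPP4- cells at 6 °C held 8.04, 6.82, 4.05, 0 and 6.58. At 22 °C the values were 1377, 1343, 1634, 1221 and 1772 in DPP4+ cells and 6.75, 7.51, 0, 6.14 and 7.72 in DPP4- cells. Every DPP4+ library was thus at 1094 or more and every DPP4- library at 8.04 or less, and no library of the 20 lay in between. The mean was 280-fold higher in DPP4+ cells at 6 °C and 261-fold higher at 22 °C, with log2 differences of 8.16 and 8.11 (SE 0.59 each, adjusted p = 5.80e-10 and 6.46e-10, limma). The 10 DPP4- libraries held 22 reads at 6 °C and 20 at 22 °C in all, so both folds rest on few reads in the lower group. With a pseudocount of 5 the log2 difference was 7.18 at both temperatures, and without library 3 of the DPP4- cells at 22 °C, which held 0 reads, it was 7.51 at 22 °C. Over all alternatives it ran from 7.18 to 8.56 at 6 °C and from 7.18 to 8.64 at 22 °C.

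Sema3c, a ligand known from the remodelling of the cardiac outflow tract (Entrez 20348, chr5:17574816-17730268, plus strand), was the most abundant of the 10 genes in DPP4+ cells, per kb of exon too. DPP4+ cells at 6 °C held 7405, 9450.1, 8034, 7145 and 11639.7 normalized reads and DPP4+ cells at 22 °C 5936, 6129.9, 7395, 6408 and 7341. DPP4- cells at 6 °C held 1011, 1054, 754, 862 and 730.0, and DPP4- cells at 22 °C 1215, 1114, 1005, 1227 and 1138. The lowest DPP4+ library exceeded the highest DPP4- library by a wide margin. Sema3c was 9.90-fold higher in DPP4+ cells at 6 °C and 5.83-fold higher at 22 °C (log2 differences 3.30 and 2.54, SE 0.12 each, adjusted p = 3.50e-16 and 3.27e-14, limma).

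Sema3d, a further vessel-patterning ligand (Entrez 108151, chr5:12383161-12588953, plus strand), held 799, 1195, 985, 816 and 1379.9 normalized reads in DPP4+ cells and 81.8, 245, 219, 147 and 60.9 in DPP4- cells at 6 °C. At 22 °C it held 906, 1133, 1167, 1112 and 1197 in DPP4+ cells and 171, 174, 147, 238 and 240.5 in DPP4- cells. Again the gates did not overlap. The fold was 6.87 at 6 °C and 5.68 at 22 °C (log2 differences 2.93 and 2.52, SE 0.30 each, adjusted p = 8.96e-08 and 6.41e-07, limma). The 5 DPP4- libraries at 6 °C differed most among themselves, with a coefficient of variation of 53.9% beside a median of 12.8% over all tested genes in that group.

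**Figure D1:**
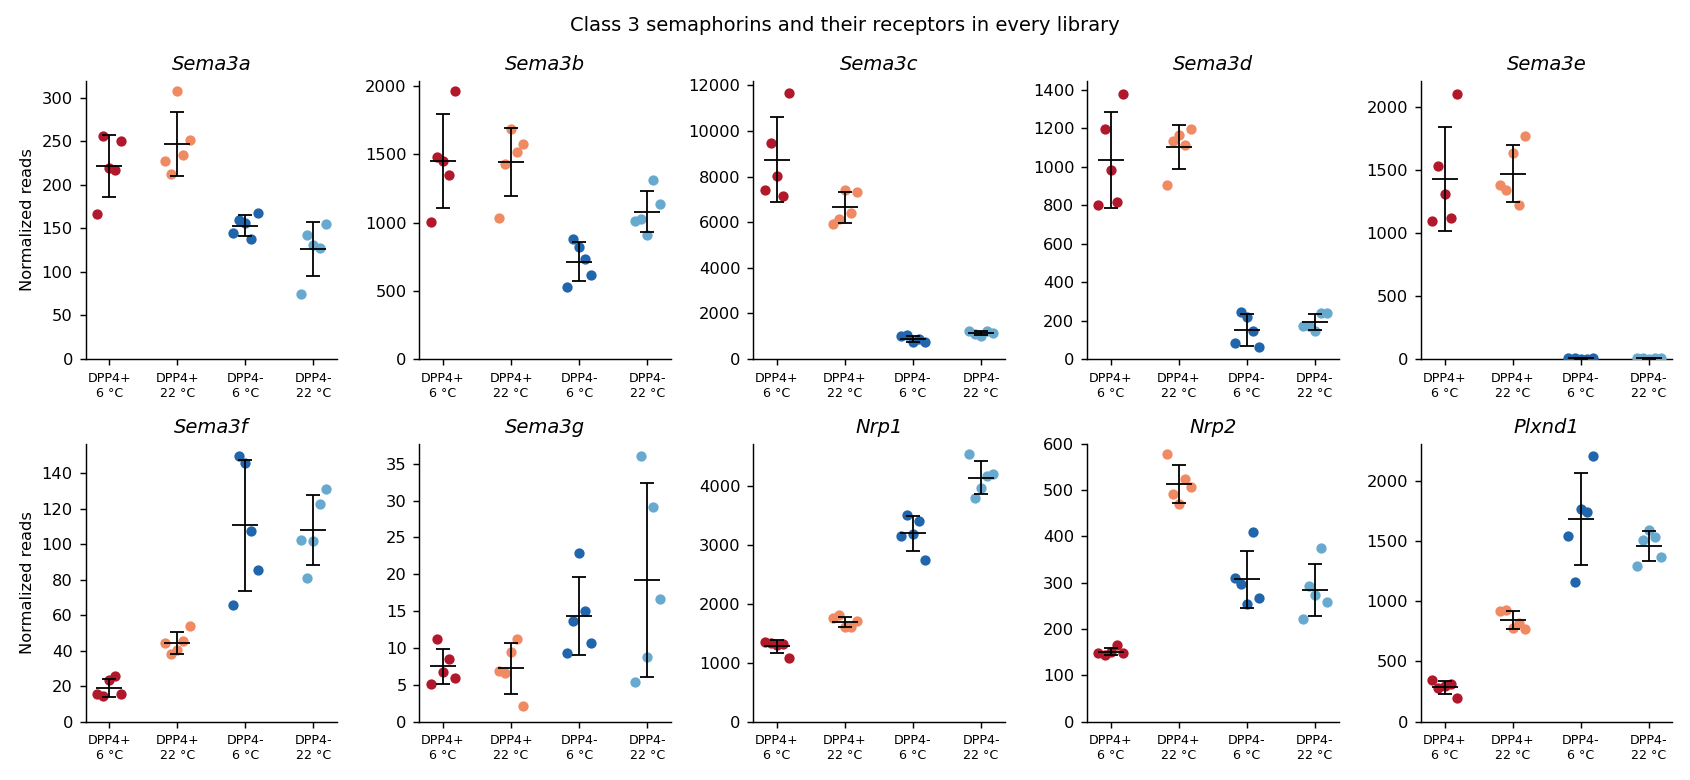
Normalized reads (vertical axes, from 0) of each gene in the 20 libraries, by group. Points are libraries and bars the mean ± SD of 5. Sema3e lies between 1094 and 2099 in the 10 DPP4+ libraries at 6 °C and 22 °C and at 8.04 or less in the 10 DPP4- libraries, and Nrp2 is lowest in DPP4+ cells at 6 °C and highest in DPP4+ cells at 22 °C.

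Since the 3 ligands that separated the gates most sit on 1 chromosome and were high together, the 250 bases before their starts in RefSeq's promoter table are shown, with Nrp2 added as the receptor with the largest cold effect. The sequences are from RefSeq on GRCm38.p6, all on the plus strand, and 8 of the 10 genes had an entry. Capitals mark the GC box GGGCGG, a motif bound by factors of the Sp family, or, in Sema3d, the half-site TGACG of the cAMP response element, each searched on both strands. They were read from chr5:14025026-14025275 for Sema3e, chr5:17574566-17574815 for Sema3c, chr5:12382916-12383165 for Sema3d and chr1:62703067-62703316 for Nrp2. The start used for Sema3d lies 5 bases inside the gene as given above, and those of Sema3e, Sema3c and Nrp2 are the gene starts.
Sema3e: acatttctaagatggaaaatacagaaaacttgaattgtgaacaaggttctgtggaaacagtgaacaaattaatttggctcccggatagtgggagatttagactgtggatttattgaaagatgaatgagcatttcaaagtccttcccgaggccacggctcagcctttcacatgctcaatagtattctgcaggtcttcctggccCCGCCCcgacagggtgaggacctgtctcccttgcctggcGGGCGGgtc
Sema3c: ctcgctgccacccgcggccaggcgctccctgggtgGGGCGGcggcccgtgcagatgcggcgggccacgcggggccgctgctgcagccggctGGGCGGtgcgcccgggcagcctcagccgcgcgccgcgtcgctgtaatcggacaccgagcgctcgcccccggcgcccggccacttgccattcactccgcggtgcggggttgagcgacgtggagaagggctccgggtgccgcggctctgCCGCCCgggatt
Sema3d: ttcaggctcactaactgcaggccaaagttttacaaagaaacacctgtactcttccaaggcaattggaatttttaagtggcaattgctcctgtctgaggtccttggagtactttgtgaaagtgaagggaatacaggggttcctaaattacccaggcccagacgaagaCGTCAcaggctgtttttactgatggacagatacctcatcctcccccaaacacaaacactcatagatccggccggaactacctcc
Nrp2: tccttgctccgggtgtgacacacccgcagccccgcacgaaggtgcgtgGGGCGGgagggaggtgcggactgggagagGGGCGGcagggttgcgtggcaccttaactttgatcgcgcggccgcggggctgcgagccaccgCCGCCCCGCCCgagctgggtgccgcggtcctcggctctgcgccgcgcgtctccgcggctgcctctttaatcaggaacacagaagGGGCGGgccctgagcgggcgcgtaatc
The windows were unlike in composition. Sema3c had 78.4% G and C with 39 CpG and Nrp2 72.4% with 32 CpG, while Sema3e had 48.0% with 7 CpG and Sema3d 46.8% with 4 CpG, beside medians of 52.4% and 6 CpG over the 32851 promoters of the table. The GC box began 215, 159 and 12 bases before the start in Sema3c, 48 and 9 before it in Sema3e, and 202, 173, 111, 106 and 27 before it in Nrp2, where the matches at 111 and 106 share 1 base. This motif was found in 32.7% of all promoter windows. The Sema3d window held no GC box and 1 half-site TGACG, 84 bases before the start, a motif found in 17.8% of all windows. TATAAA, present in 12.4% of all windows, and the E-box CACGTG, present in 6.02%, were in none of the 8 windows. Positions count from the start that the promoter table uses. Among the windows not shown, that start lies 271962 bases inside the gene for Sema3a, 482 for Nrp1 and 334 for Plxnd1. The Sema3a window is therefore far from the gene start. Such matches describe letters and not binding.

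Sema3d, Sema3a, Sema3e and Sema3c follow one another within 5.35 Mb of chromosome 5. That interval holds 22 protein-coding genes in RefSeq, of which 19 were in the table and 6 passed the filter on low values, 4 of them these semaphorins. The 2 others were Cacna2d1, which encodes a calcium channel subunit, and Hgf, which encodes hepatocyte growth factor. Cacna2d1 averaged 583.6 normalized reads in DPP4+ and 1655 in DPP4- cells at 6 °C, and 647 in DPP4+ and 1928 in DPP4- cells at 22 °C. It was lower in DPP4+ cells at both temperatures (log2 differences -1.50 and -1.57, adjusted p = 4.90e-16 and 2.71e-16, limma). Hgf averaged 433 normalized reads in DPP4+ cells and 367 in DPP4- cells at 6 °C, with a log2 difference of 0.24 (adjusted p = 0.226, limma). At 22 °C it averaged 267 in DPP4+ cells and 406 in DPP4- cells, with a difference of -0.58 (adjusted p = 0.00579, limma). The semaphorin genes of the interval were therefore higher in DPP4+ cells while Cacna2d1, which lies between Sema3e and Sema3c, was lower.

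**Figure D2:**
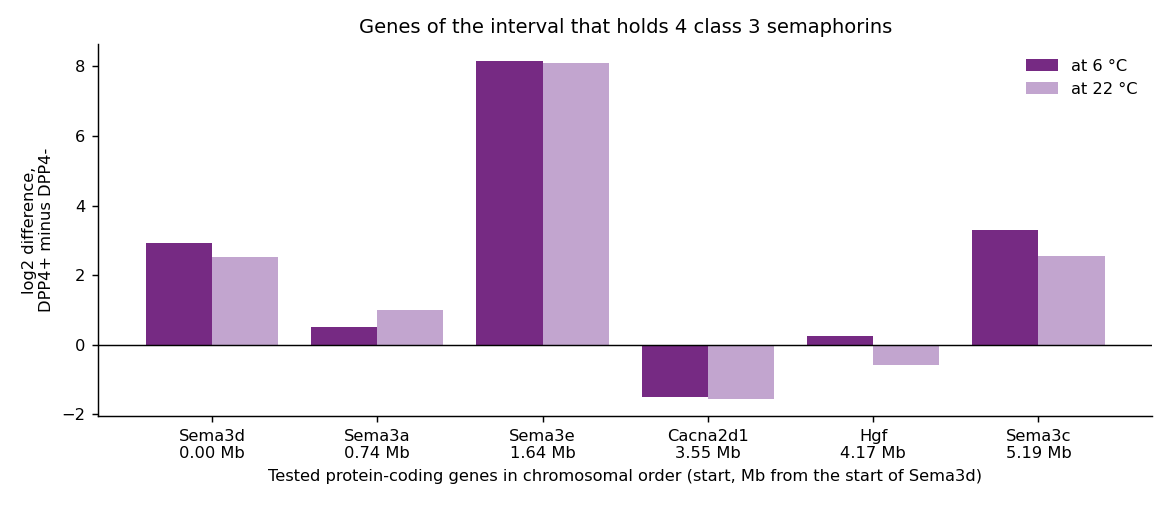
Log2 difference, DPP4+ minus DPP4- cells (vertical axis, from 0), of the 6 tested protein-coding genes of the chromosome 5 interval in chromosomal order (horizontal axis, start in Mb from that of Sema3d). Dark bars are at 6 °C and light bars at 22 °C. The 4 semaphorin genes are above 0 at both temperatures, Cacna2d1 is below 0 at both (-1.50 and -1.57), and Hgf is 0.24 at 6 °C and -0.58 at 22 °C.

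Sema3a, the classical axon repellent and a ligand of the Nrp1 receptor (Entrez 20346, chr5:13124822-13603485, plus strand), held 166, 256, 219, 217 and 251 normalized reads in DPP4+ cells and 145, 159.5, 157, 137 and 168 in DPP4- cells at 6 °C. At 22 °C it held 228, 212, 308, 234 and 252 in DPP4+ cells and 74.3, 143, 131, 127 and 156 in DPP4- cells. The gates were apart at 22 °C (1.95-fold higher in DPP4+ cells, adjusted p = 4.18e-06, limma). They met at 6 °C, where the lowest DPP4+ library lay just inside the DPP4- range (1.45-fold, adjusted p = 0.00428, limma).

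Sema3b, a ligand studied as a growth suppressor in tumours (Entrez 20347, chr9:107597674-107609241, minus strand), held 1006, 1480.0, 1453, 1346 and 1966 in DPP4+ cells and 526, 881, 818, 732 and 616 in DPP4- cells at 6 °C. At 22 °C it held 1032, 1428, 1685, 1515 and 1575 in DPP4+ cells and 1014, 1029.9, 912, 1311 and 1138 in DPP4- cells. For Sema3b the gates were apart at 6 °C (2.03-fold higher in DPP4+ cells, adjusted p = 2.37e-05, limma) and overlapped at 22 °C (1.34-fold, adjusted p = 0.0344, limma). The Sema3b call at 22 °C was lost with no filter on low values (adjusted p = 0.0566). It was also lost without library 2, 3, 4 or 5 of the DPP4+ cells or library 1, 2 or 3 of the DPP4- cells at 22 °C (adjusted p = 0.0542 to 0.0849), with log2 differences of 0.35 to 0.53 over the libraries left out in turn.

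Sema3f, which signals mainly through the Nrp2 receptor (Entrez 20350, chr9:107681499-107710475, minus strand), ran the other way. It held 15.5, 14.5, 23.3, 25.6 and 15.7 normalized reads in DPP4+ cells and 65.7, 150.0, 146, 107 and 85.6 in DPP4- cells at 6 °C. At 22 °C it held 44.2, 38.0, 40.5, 45.7 and 53.8 in DPP4+ cells and 103, 81.1, 102, 123 and 131 in DPP4- cells. No DPP4+ library reached the DPP4- range. Sema3f was 5.86-fold lower in DPP4+ cells at 6 °C and 2.43-fold lower at 22 °C (log2 differences -2.46 and -1.25, SE 0.20 each, adjusted p = 1.15e-10 and 6.73e-06, limma). Sema3g, an Nrp2 ligand known from the endothelium (Entrez 218877, chr14:31217873-31230352, plus strand), averaged 7.53 ± 2.39 normalized reads in DPP4+ and 14.3 ± 5.31 in DPP4- cells at 6 °C (SD, n = 5, adjusted p = 0.0776, limma). With only the 2 groups compared in the fit, the difference at 6 °C was called (log2 difference -0.83, adjusted p = 0.0223, limma). At 22 °C it averaged 7.25 ± 3.44 in DPP4+ and 19.2 ± 13.1 in DPP4- cells (2.65-fold lower, adjusted p = 0.0171, limma). The groups overlapped there, and the DPP4- libraries ran from 5.40 to 36.0. That call ended without library 5 of the DPP4+ cells or without library 2 or 4 of the DPP4- cells at 22 °C (adjusted p = 0.0707, 0.0703 and 0.0599, limma). The 5 DPP4- libraries at 22 °C held 67 reads of Sema3g in all. Endothelial Pecam1 moved with the gates in the same direction as Sema3g, at 23.2 in DPP4+ and 68.2 in DPP4- cells at 6 °C and at 23.7 in DPP4+ and 73.6 in DPP4- cells at 22 °C. Of the 12 endothelial markers 9 were tested. In DPP4+ cells at 22 °C 1 was higher and 5 were lower, against 38.7% and 36.2% of all tested genes. At 22 °C the summed level of the 12 markers, mostly Tek, was 2609 to 3325 in DPP4+ and 1050.1 to 1489 in DPP4- cells. Their part in the result was not tested.

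The ligands called with cold were Sema3c and Sema3f in DPP4+ cells and Sema3b in DPP4- cells. In DPP4+ cells at 6 °C against 22 °C, 1 of the 10 genes was called higher (Sema3c) and 4 were called lower (Sema3f, Nrp1, Nrp2 and Plxnd1), against 23.5% of all tested genes called higher and 22.6% called lower. The 4 lower genes had groups apart, against 19.0% of all genes apart and lower. In DPP4- cells 2 of the 10 were lower (Sema3b and Nrp1) and 0 were higher (limma), against 3.23% of all genes called lower and 1.98% called higher. Both lower genes had groups apart, against 3.22% of all genes apart and lower. The count of genes with an unadjusted p under 0.05 was 5 in DPP4+ cells, 1 higher and 4 lower, and 3 in DPP4- cells, 0 higher and 3 lower. With edgeR and with DESeq2 on recovered reads, 0 of the 10 genes were called higher in DPP4- cells.

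Sema3c averaged 8735 ± 1853 normalized reads in DPP4+ cells at 6 °C and 6642 ± 684 in DPP4+ cells at 22 °C (SD, n = 5), and the 2 groups overlapped. This was a 1.32-fold rise (log2 difference 0.38, SE 0.12, adjusted p = 0.0139, limma). In DPP4- cells Sema3c averaged 882 ± 147 at 6 °C and 1139.8 ± 89.5 at 22 °C, a log2 difference of -0.38 (adjusted p = 0.0676, limma). The cold effects of Sema3c differed between DPP4+ and DPP4- cells by 0.76 log2 units (95% interval 0.40 to 1.11, adjusted p = 0.00161, limma). With only the 2 groups compared in the fit, the value in DPP4- cells was called (adjusted p = 0.0443), and so it was without library 2 of the DPP4- cells at 6 °C (log2 difference -0.45, adjusted p = 0.0309).

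Sema3f fell to 18.9 ± 5.13 normalized reads in DPP4+ cells at 6 °C, against 44.4 ± 6.05 in those at 22 °C (SD, n = 5). The highest cold library, at 25.6, stayed under the lowest library at 22 °C, at 38.0. This was a 2.35-fold fall (log2 difference -1.22, SE 0.20, adjusted p = 3.07e-05, limma). In DPP4- cells Sema3f averaged 111 ± 36.9 at 6 °C and 108 ± 19.7 at 22 °C (log2 difference -0.01, adjusted p = 0.984, limma). The cold effects differed by -1.21 (95% interval -1.80 to -0.61, adjusted p = 0.00230, limma). The DPP4+ libraries at 6 °C held 115 reads of Sema3f in all and those at 22 °C 332, so counting error weighs on these values more than on those of Sema3c.

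Sema3b was the 1 ligand called with cold in DPP4- cells. It averaged 714 ± 145 normalized reads in DPP4- cells at 6 °C and 1081 ± 152 in DPP4- cells at 22 °C (SD, n = 5), a 1.51-fold fall with groups apart (log2 difference -0.61, SE 0.17, adjusted p = 0.0408, limma). The call was close to the threshold and was lost with TMM factors (adjusted p = 0.0509), with quantile normalization (0.0655), with edgeR (0.0536) and with no filter (0.0748). It was also lost without library 1, 4 or 5 of the DPP4- cells at 6 °C or library 1, 2, 4 or 5 of those at 22 °C (adjusted p = 0.0561 to 0.0922), while the log2 difference stayed between -0.69 and -0.51. In DPP4+ cells Sema3b averaged 1450.4 ± 345 at 6 °C and 1447 ± 249.9 at 22 °C (adjusted p = 0.969, limma). The difference of the cold effects, 0.60 with a 95% interval of 0.10 to 1.10, was not called (adjusted p = 0.0605, limma). It was called with DESeq2 (adjusted p = 0.0300), so this call depends on the method. It was also called without library 1 of the DPP4+ cells at 6 °C, library 3 of the DPP4+ cells at 22 °C, library 2 of the DPP4- cells at 6 °C or library 3 of the DPP4- cells at 22 °C (0.72, 0.66, 0.68 and 0.66, adjusted p = 0.0173, 0.0477, 0.0354 and 0.0481).

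The remaining ligands were not called with cold in either gate. Sema3e averaged 1429.6 ± 413 normalized reads at 6 °C and 1469 ± 226 at 22 °C in DPP4+ cells, a log2 difference of -0.07 with a 95% interval of -1.31 to 1.17. Sema3d averaged 1035 ± 250.4 at 6 °C and 1103 ± 115 at 22 °C in DPP4+ cells, with an interval of -0.76 to 0.52. Sema3a averaged 222 ± 35.8 at 6 °C and 247 ± 36.9 at 22 °C in DPP4+ cells, with an interval of -0.47 to 0.16. The intervals of Sema3e and Sema3d leave room for changes of the size seen in Sema3c, and that of Sema3a for a fall of that size. The 4 groups share 1 estimate of the spread per gene, so the variable DPP4- libraries widen the DPP4+ intervals of Sema3e and Sema3d. For Sema3e the coefficient of variation was 62.7% at 6 °C and 57.0% at 22 °C in DPP4- cells. In DPP4+ cells it was 28.9% and 15.4%. For Sema3a the cold effects of the gates differed by -0.47 (95% interval -0.92 to -0.02, adjusted p = 0.0981, limma) and were not called apart. Whether it was called depended on the fit, as it was with library totals set equal (-0.62, adjusted p = 0.0251, limma). Under that scaling the median of all genes was -0.13. Relative to the median of all genes, Sema3a was at -0.49 with that scaling and without it.

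**Figure D3:**
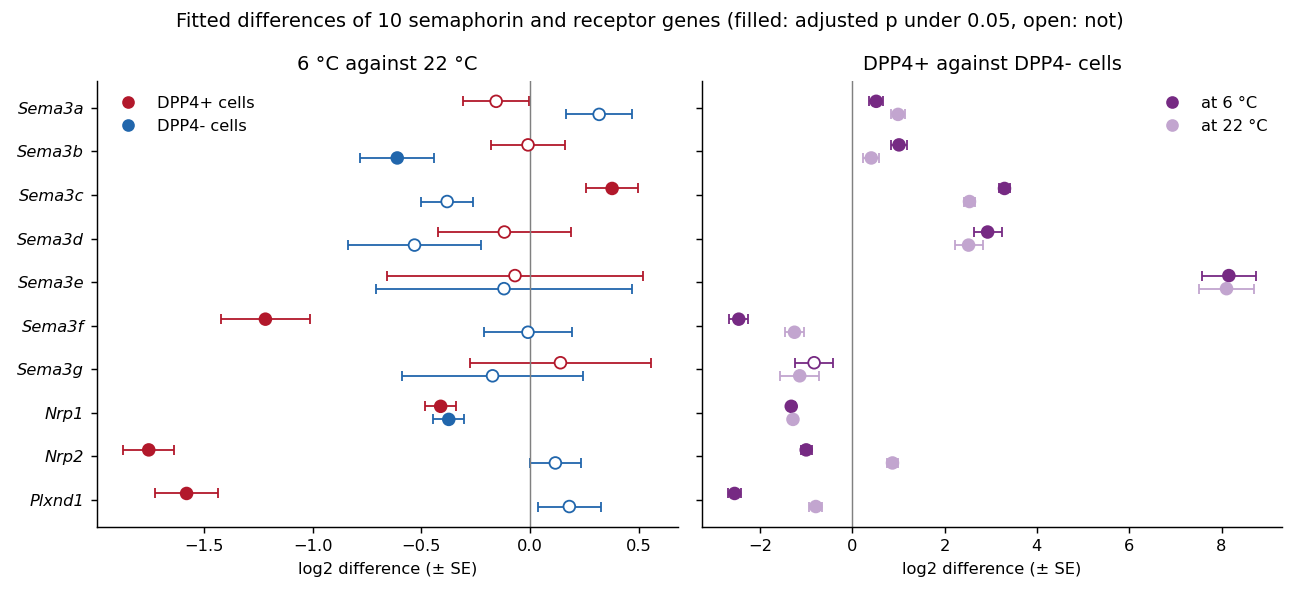
Fitted log2 differences with their SE (horizontal axes) of the 10 genes, 6 °C minus 22 °C in DPP4+ and DPP4- cells on the left and DPP4+ minus DPP4- cells at 6 °C and 22 °C on the right. Filled points have an adjusted p under 0.05 (limma). Sema3f, Nrp2 and Plxnd1 lie below -1 with cold in DPP4+ cells and near 0 in DPP4- cells, and Nrp2 changes side of 0 between 22 °C (0.87) and 6 °C (-0.998).

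All 3 receptors fell with cold in DPP4+ cells, Nrp2 and Plxnd1 about as far as each other and Nrp1 less. Nrp2, a receptor for Sema3f and a co-receptor for VEGF-C (Entrez 18187, chr1:62703317-62818692, plus strand, with the promoter window shown above), held 147, 145, 151, 165 and 149 normalized reads in DPP4+ cells at 6 °C. It held 578, 491, 470.4, 524 and 506 in DPP4+ cells at 22 °C. The highest cold library lay far under the lowest library at 22 °C, and the 5 cold libraries were close together, with a coefficient of variation of 5.36% beside a median of 10.8% over all tested genes. The mean was 152 ± 8.13 at 6 °C and 514 ± 41.0 at 22 °C (SD, n = 5), a 3.39-fold fall (log2 difference -1.75, SE 0.12, adjusted p = 1.94e-11, limma).

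In DPP4- cells Nrp2 held 309.7, 297, 255, 410.3 and 267 normalized reads at 6 °C and 221, 293, 273, 375 and 258 at 22 °C. These 2 groups overlapped (log2 difference 0.12, 95% interval -0.13 to 0.36, adjusted p = 0.618, limma). The cold effects of Nrp2 differed between DPP4+ and DPP4- cells by -1.87 (95% interval -2.21 to -1.53, adjusted p = 7.07e-09, limma). The order of the gates turned over with temperature. Nrp2 was 2.03-fold lower in DPP4+ than in DPP4- cells at 6 °C (adjusted p = 5.64e-08) and 1.81-fold higher at 22 °C (adjusted p = 4.64e-07, limma), each time with groups apart. With library totals set equal, both directions held, at -0.53 at 6 °C and 1.48 at 22 °C. That scaling moved the median of all genes to 0.50 at 6 °C and 0.64 at 22 °C. Relative to these medians Nrp2 was at -1.03 at 6 °C and 0.84 at 22 °C.

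Plxnd1, the plexin that Sema3e binds (Entrez 67784, chr6:115954811-115995339, minus strand), held 344, 282, 294, 311 and 195 normalized reads in DPP4+ cells at 6 °C and 922, 926, 777, 819 and 771 in DPP4+ cells at 22 °C. No cold library came near the range at 22 °C. The mean fell to 285 ± 55.5 at 6 °C, against 843 ± 76.3 at 22 °C (SD, n = 5), 2.95-fold lower (log2 difference -1.58, SE 0.14, adjusted p = 1.83e-08, limma). In DPP4- cells it held 1543, 1159, 1761, 1741 and 2206 at 6 °C and 1289.6, 1506, 1593, 1532 and 1366 at 22 °C, with overlapping groups (log2 difference 0.18, 95% interval -0.12 to 0.48, adjusted p = 0.509, limma). The difference of the cold effects was -1.76 (95% interval -2.18 to -1.34, adjusted p = 1.25e-06, limma). Plxnd1 was 5.89-fold lower in DPP4+ than in DPP4- cells at 6 °C (adjusted p = 1.87e-12) and 1.73-fold lower at 22 °C (adjusted p = 5.02e-05, limma). The call at 22 °C was lost with library totals set equal (log2 difference -0.18, adjusted p = 0.333), a scaling under which the median of all genes was 0.64.

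Nrp1, a receptor for Sema3a and a co-receptor for VEGF-A (Entrez 18186, chr8:128358591-128505476, plus strand), fell in both gates. It held 1359, 1340.0, 1302, 1314 and 1089 normalized reads in DPP4+ cells at 6 °C and 1759, 1808, 1615, 1612 and 1706 in DPP4+ cells at 22 °C. It held 3159, 3515, 3192, 3416 and 2743 in DPP4- cells at 6 °C and 4551, 3810.2, 3978, 4182 and 4210.1 in DPP4- cells at 22 °C. In each gate every cold library was below every library at 22 °C, by 1.33-fold in the mean of DPP4+ cells (log2 difference -0.41, SE 0.07, adjusted p = 4.21e-05) and by 1.29-fold in that of DPP4- cells (log2 difference -0.37, SE 0.07, adjusted p = 0.00297, limma). The cold effects differed by -0.04 with a 95% interval of -0.24 to 0.17 (adjusted p = 0.810, limma). Nrp1 was 2.50-fold lower in DPP4+ than in DPP4- cells at 6 °C and 2.44-fold lower at 22 °C (adjusted p = 3.40e-14 and 6.57e-14, limma).

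Beside these falls stood other changes in DPP4+ cells. Pdgfrb, one of the genes of the sort, averaged 1505 normalized reads in DPP4+ cells at 6 °C and 2942 in DPP4+ cells at 22 °C, and the related receptor gene Pdgfra averaged 5287 at 6 °C and 11512 at 22 °C. Of the 13 pericyte and smooth muscle markers 12 were tested, 2 higher and 5 lower with cold in DPP4+ cells. Of all tested genes 23.5% were called higher and 22.6% lower. The summed level of these markers was 4464 to 7529 at 6 °C and 9603 to 12515 at 22 °C. Most of that sum came from the contractile genes Acta2, at 3083 normalized reads at 6 °C and 6046 at 22 °C (log2 difference -0.99, adjusted p = 0.0649, limma), and Tagln, at 2123 at 6 °C and 3700 at 22 °C (-0.82, adjusted p = 0.0175, limma). Rgs5, a defining pericyte marker, averaged 7.62 at 6 °C and 4.95 at 22 °C (0.65, adjusted p = 0.374, limma). Of the 8 mature adipocyte genes 7 were tested and 1 was called, lower, against 22.6% of all tested genes. Their sums were 897 to 1446 at 6 °C and 1746 to 2277 at 22 °C. The part of these markers in the fall of the receptors was not tested.

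Across the difference of the cold effects, 1 of the 10 genes was called higher in DPP4+ cells (Sema3c) and 3 were called lower (Sema3f, Nrp2 and Plxnd1), against 16.8% and 16.4% of all tested genes. The cold effects of the 2 gates shared no library, whereas the 2 comparisons of the gates with each other use the same 20 libraries as the cold effects.

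Levels of different genes are compared per kilobase of exon, with exon lengths from GENCODE vM21. In DPP4+ cells at 6 °C the order was Sema3c at 1223 normalized reads per kb, Sema3b at 304, Sema3e at 154, Nrp1 at 131 and Sema3d at 120.4. Then came Plxnd1 at 39.1, Sema3a at 16.0, Nrp2 at 12.8, Sema3f at 3.64 and Sema3g at 1.66. The libraries of Sema3b and Sema3e overlapped, as did those of Sema3e and Nrp1, Nrp1 and Sema3d, and Sema3a and Nrp2, and the other neighbours were apart. In DPP4+ cells at 22 °C the order was Sema3c at 930.3, Sema3b at 303, Nrp1 at 174, Sema3e at 158, Sema3d at 128, Plxnd1 at 115, Nrp2 at 43.4, Sema3a at 17.8, Sema3f at 8.55 and, last, Sema3g. There the genes from Nrp1 to Plxnd1 overlapped with their neighbours, and Nrp2 lay above Sema3a with no overlap.

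In DPP4- cells Nrp1 led. At 6 °C the order per kb was Nrp1 at 328, Plxnd1 at 230.4, Sema3b at 149.6 and Sema3c at 124, each overlapping with the next. Then came Nrp2 at 26.0, Sema3f at 21.3, Sema3d at 17.5 and Sema3a at 11.0, which also overlapped as neighbours, and last Sema3g at 3.16 and Sema3e at 0.549. At 22 °C it was Nrp1 at 424, Sema3b at 226, Plxnd1 at 199.6, Sema3c at 159.6, Nrp2 at 24.0, Sema3d at 22.6, Sema3f at 20.8, Sema3a at 9.10, Sema3g at 4.23 and Sema3e at 0.606. The neighbours that overlapped at 22 °C were Sema3b and Plxnd1, Nrp2 and Sema3d, Sema3d and Sema3f, and Sema3a and Sema3g. Sema3e thus had rank 3 at 6 °C and rank 4 at 22 °C in DPP4+ cells, and was last in DPP4- cells at both temperatures.

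**Figure D4:**
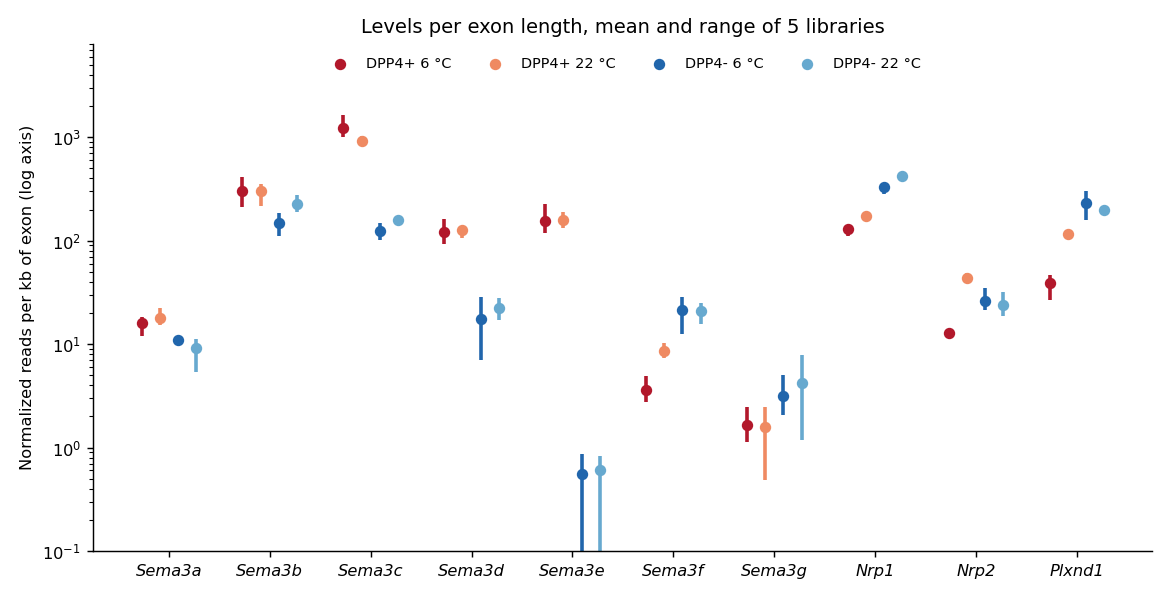
Normalized reads per kb of exon on a log axis, by gene and group, with points for the mean and lines for the range of 5 libraries. Lines of Sema3e in DPP4- cells that reach the bottom edge include a library at 0. Sema3c is the highest gene in DPP4+ cells (1223 at 6 °C and 930.3 at 22 °C) and Nrp1 in DPP4- cells (328 at 6 °C and 424 at 22 °C).

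Summed over the 7 ligands, the median library held 1707 normalized reads per kb in DPP4+ cells and 325 in DPP4- cells at 6 °C, and 1504 in DPP4+ cells and 429 in DPP4- cells at 22 °C. Sema3c made up a median of 66.5% of this sum in DPP4+ cells and 37.2% in DPP4- cells at 6 °C, and 59.8% in DPP4+ cells and 36.6% in DPP4- cells at 22 °C. Its share was 65.8 to 70.3% in the 5 DPP4+ libraries at 6 °C and 58.9 to 62.6% in the 5 at 22 °C, with no overlap. Sema3e made up 8.26% of the sum in DPP4+ cells and 0.181% in DPP4- cells at 6 °C. The ratio of Nrp1 to Nrp2, both per kb, was 8.85 to 11.2 in DPP4+ cells at 6 °C, 3.68 to 4.45 in DPP4+ cells at 22 °C, 10.1 to 15.1 in DPP4- cells at 6 °C and 13.5 to 24.9 in DPP4- cells at 22 °C. DPP4+ cells at 22 °C stood apart from the other 3 groups in this ratio.

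Within DPP4+ cells at 6 °C the same libraries were at the ends for several genes, a description with no test. Library 5 was the highest of the 5 for Sema3b, Sema3c, Sema3d and Sema3e and the lowest for Nrp1 and Plxnd1. Library 1 was the lowest for Sema3a, Sema3b, Sema3d, Sema3e and Sema3g and the highest for Nrp1 and Plxnd1. The other genes did not follow this, since Nrp2 and Sema3f were highest in library 4 and lowest in library 2, Sema3a and Sema3g were highest in library 2, and Sema3c was lowest in library 4. Library 5 also had the highest summed level of the 7 progenitor markers, in a range of 70805 to 104665 normalized reads. Of these markers Pi16 was the highest, at 34283 to 47605. The endothelial sum was highest in library 5 too, in a range of 2822 to 4309. It was mostly Tek, at 2433 to 4014 in that group, where Pecam1 averaged 23.2 and Cdh5 21.7. Library 1 had the highest pericyte and smooth muscle sum (7529), mature adipocyte sum (1446) and lymphatic sum (105) of that group. The part of these markers in the spread was not tested. The coefficients of variation in that group were 21.2% for Sema3c, 23.8% for Sema3b, 24.2% for Sema3d and 28.9% for Sema3e, above the median of 10.8% of all tested genes.

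Other receptors and ligands of the pathway are given by list, and the lists were chosen with earlier results known. Their counts stand beside 23.5% of all tested genes called higher and 22.6% called lower with cold in DPP4+ cells, 1.98% and 3.23% with cold in DPP4- cells, and 38.7% and 36.2% between the gates at 22 °C. Of the 8 other plexin genes 7 were tested. With cold in DPP4+ cells 1 was higher and 4 were lower, with a median log2 difference of -0.59 beside 0.0058 over all genes. Plxna4, a partner of neuropilins in Sema3a signalling, was the gene that rose, with 677 ± 183 normalized reads in DPP4+ cells at 6 °C and 66.9 ± 15.3 at 22 °C (SD, n = 5, log2 difference 3.30, adjusted p = 3.28e-10, limma). In DPP4- cells it was low, at 7.94 ± 4.13 at 6 °C and 12.9 ± 4.12 at 22 °C (adjusted p = 0.118). Plxna1, a further plexin A, averaged 3003 in DPP4+ cells at 6 °C and 4513 in DPP4+ cells at 22 °C (log2 difference -0.59, adjusted p = 1.66e-05, limma). Plxnb2, a receptor for class 4 semaphorins, averaged 1736 in DPP4+ cells at 6 °C and 2670.3 at 22 °C (log2 difference -0.62, adjusted p = 9.45e-09, limma). In DPP4- cells limma called 0 of the 7 plexins higher or lower with cold, 3 had an unadjusted p under 0.05, and edgeR and DESeq2 also called 0. Between the gates at 22 °C 4 plexins were higher and 1 was lower in DPP4+ cells, and the lower gene was Plxna2 (234 normalized reads in DPP4+ and 446 in DPP4- cells, a log2 difference of -0.92 with adjusted p = 8.98e-09, limma). With library totals set equal, 6 were higher and 1 was lower.

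Of the 13 semaphorin genes of classes 4 to 7, most of which encode membrane-bound proteins, 11 were tested. With cold in DPP4+ cells 4 were higher and 1 was lower, against 23.5% and 22.6% of all genes, with a median log2 difference of 0.08. Sema6a, a transmembrane ligand of plexin A proteins, rose to 189.6 ± 22.6 normalized reads in DPP4+ cells at 6 °C, against 77.0 ± 13.6 at 22 °C (log2 difference 1.30, adjusted p = 1.08e-07, limma). Sema4c averaged 951 at 6 °C and 759.9 at 22 °C (0.33, adjusted p = 0.000979, limma). Sema6c, the gene that fell, averaged 98.2 at 6 °C and 136 at 22 °C (-0.48, adjusted p = 0.00213, limma). In DPP4- cells 1 was higher and 1 lower with cold. Between the gates at 22 °C 2 were higher and 7 lower in DPP4+ cells, against 38.7% and 36.2% of all genes, with a median log2 difference of -0.94. Sema4a averaged 43.4 in DPP4+ and 379 in DPP4- cells at 22 °C (-3.09, adjusted p = 6.38e-11, limma). Sema6b averaged 154 in DPP4+ and 475 in DPP4- cells (-1.61, adjusted p = 6.86e-14, limma). With library totals set equal, 4 were higher and 5 lower.

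The 8 genes of VEGF ligands and receptors, which share the neuropilins as co-receptors, were all tested. With cold in DPP4+ cells 3 were higher and 4 lower, and in DPP4- cells 2 were higher and 2 lower, against 1.98% and 3.23% of all genes. In DPP4- cells 2 were higher and 0 lower with library totals set equal, 1 higher and 2 lower with TMM factors, and 0 higher and 1 lower with quantile normalization. Vegfa, the main ligand that binds Nrp1, rose to 5376 ± 912 normalized reads in DPP4+ cells at 6 °C, against 2081 ± 151 at 22 °C (SD, n = 5, log2 difference 1.35, adjusted p = 1.65e-10, limma). Vegfd, a lymphatic growth factor, fell to 1397 ± 98.9 at 6 °C, against 6408 ± 533 at 22 °C (log2 difference -2.20, adjusted p = 6.69e-17, limma). Flt4, the receptor for VEGF-C and VEGF-D, rose to 62.5 ± 13.6 in DPP4+ cells at 6 °C, against 6.50 ± 1.64 at 22 °C (log2 difference 3.08, adjusted p = 1.93e-09, limma). Flt4 is also 1 of the 5 lymphatic endothelial markers, of which 2 were tested and 2 rose, against 23.5% of all tested genes called higher. Lyve1 and Mmrn1, under the filter, averaged 0.853 and 0.729 in DPP4+ cells at 6 °C and 1.65 and 0.976 at 22 °C. The summed level of the 5 markers was 56.8 to 105 in DPP4+ cells at 6 °C and 16.4 to 26.9 at 22 °C. That sum includes Flt4 itself, and the part of these markers in the result was not tested. Between the gates at 22 °C 3 of the 8 were higher and 2 lower in DPP4+ cells (with library totals set equal 5 were called, all higher). Vegfd averaged 6408 in DPP4+ and 789 in DPP4- cells (3.02, adjusted p = 1.83e-20, limma). Pgf, a ligand of the VEGF receptor Flt1, averaged 177 in DPP4+ and 12.0 in DPP4- cells (3.79, adjusted p = 1.09e-10, limma).

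Of the 4 cell adhesion co-receptors, immunoglobulin-type proteins that can join semaphorin receptor complexes, all 4 were tested, and 1 was higher and 1 lower with cold in DPP4+ cells. Cntn2 averaged 27.3 ± 3.21 normalized reads in DPP4+ cells at 6 °C and 118 ± 16.9 at 22 °C (log2 difference -2.07, adjusted p = 0.000619, limma). Nrcam averaged 1532.5 ± 186 at 6 °C and 1253 ± 125 at 22 °C (0.29, adjusted p = 0.0377, limma). The Nrcam call was lost with TMM factors (adjusted p = 0.0705), with quantile normalization (0.121) and with library totals set equal (0.0626). In DPP4- cells 1 was called, lower. At 22 °C 3 were higher and 1 was lower in DPP4+ cells (3 and 0 of 3 tested with library totals set equal). Nrcam averaged 1253 in DPP4+ and 374 in DPP4- cells (1.75, adjusted p = 2.74e-12, limma), and Cntn2 averaged 118 in DPP4+ and 1.37 in DPP4- cells (5.88, adjusted p = 4.11e-11, limma).

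Among 23 genes of signal proteins that act downstream of plexins 21 were tested. With cold 5 were higher and 10 lower in DPP4+ cells, and 1 of the 21 was called, lower, in DPP4- cells. The number higher in DPP4+ cells was near the share of all genes, and was 1, beside 9 lower, with quantile normalization and 3, beside 10 lower, with TMM factors or library totals set equal. The number lower in DPP4- cells was 0 with those 3 scalings and 3 with DESeq2. Limk1, a kinase that phosphorylates cofilin, rose to 1031 ± 129 normalized reads in DPP4+ cells at 6 °C, against 539 ± 51.2 at 22 °C (log2 difference 0.93, adjusted p = 3.60e-08, limma). Pak1, a kinase that activates it, fell to 74.4 ± 15.6, against 162 ± 21.9 at 22 °C (-1.12, adjusted p = 7.02e-07, limma). Fes, a tyrosine kinase bound by plexin A1, fell to 110.1 ± 17.1, against 201 ± 7.09 at 22 °C (-0.88, adjusted p = 4.25e-06, limma). Between the gates at 22 °C 11 were higher and 6 lower in DPP4+ cells (17 and 2 with library totals set equal). Rras2, a small GTPase, averaged 1196 in DPP4+ and 231 in DPP4- cells (2.38, adjusted p = 3.34e-16, limma). Mical3, of the family of plexin-bound oxidoreductases, averaged 99.99 in DPP4+ and 330.03 in DPP4- cells (-1.72, adjusted p = 2.24e-11, limma).

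Proprotein convertases cleave class 3 semaphorins and so set their activity, and all 4 of their genes on the list were tested. With cold 3 of the 4 were called in DPP4+ cells, all higher, and 2 of the 4 in DPP4- cells, both lower. With library totals set equal 1 was higher and 1 lower in DPP4- cells, and with quantile normalization 1 was called, lower. Pcsk5 averaged 2604 ± 303 normalized reads in DPP4+ cells at 6 °C and 1223 ± 130.2 at 22 °C (log2 difference 1.09, adjusted p = 1.02e-10, limma). Furin averaged 2311 ± 134 at 6 °C and 1699.6 ± 52.9 at 22 °C (0.44, adjusted p = 4.60e-07, limma), and Pcsk7 averaged 392 ± 19.0 at 6 °C and 320.3 ± 14.8 at 22 °C (0.29, adjusted p = 0.00327, limma). Pcsk6 was the convertase that set the gates apart most, with 7449 normalized reads in DPP4+ and 623 in DPP4- cells at 22 °C (3.59, adjusted p = 4.47e-14, limma). Pcsk5 was lower in DPP4+ cells there, with 1223 in DPP4+ and 2492 in DPP4- cells (-1.03, adjusted p = 4.71e-11, limma). At 22 °C 1 of the 4 was higher and 3 were lower in DPP4+ cells, a split that became 3 higher and 1 lower with library totals set equal.

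For each gene, the genes whose log2 levels ran most alike over the 20 libraries were found by Pearson correlation, a measure in which the 4 groups and the shared libraries weigh most. For Sema3c they were Car8, Pi16 and Glce (r = 0.99 each), for Sema3e Anxa3, Npnt and Uchl1 (0.99, 0.99 and 0.98), and for Sema3d Ntn4, Mfhas1 and Nr4a1 (0.98, 0.98 and 0.97). Pi16, a marker of the DPP4+ progenitor class, averaged 39221 normalized reads in DPP4+ and 235 in DPP4- cells at 6 °C, and 30115 in DPP4+ and 281 in DPP4- cells at 22 °C. For Sema3b they were Pam, Mmp23 and Rtn3 (0.95, 0.93 and 0.92), for Sema3a Zfp647, Zfp995 and Efemp1 (0.92, 0.91 and 0.90), for Sema3f Rgs16, H6pd and Hhip (each 0.96) and for Sema3g Tmem198, Yipf2 and Esam (0.81, 0.78 and 0.76). Among the receptors they were Vcam1, Angptl4 and Podn for Nrp1 (0.99, 0.98 and 0.98), Vcl, Lbh and Cmya5 for Nrp2 (0.96, 0.95 and 0.95), and Pdgfrb, Adamts7 and Ripor3 for Plxnd1 (each 0.98). Pdgfrb is one of the genes the cells were sorted for, and Esam, on the list for Sema3g, is 1 of the 12 endothelial markers.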

How the data were processed

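RNA-seq of 20 libraries in 4 groups of 5 was analysed. The submitters' processing notes name DESeq2 1.6.3, featureCounts 1.4.6, HISAT2 2.0.1 and Trim Galore 0.4.1, and as builds mm10 and GRCm38, with no role or order. The annotation and the use of strand in counting are not given in the sources used here. The deposited signal is a normalized count for each gene, made by the authors and carrying 1 scale factor per library, as its values show. Of the values, 100% were whole multiples of 1 step per library (tolerance 0.1 read), which gave back whole reads. In M (1e+06), a DPP4+ library's normalized counts summed to between 10.8 and 12.1 at 6 °C, and to between 10.2 and 11.5 at 22 °C. A DPP4- library's sum lay between 15.4 and 16.2 at 6 °C, and between 16.3 and 17.3 at 22 °C. Rows without a symbol (958) took 0.0610 to 0.0824% of the reads and stayed in the fit. Symbols turned into dates by a spreadsheet (26) were restored from RefSeq by gene ID.

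The 13057 genes averaging 10 normalized reads or more were fitted as log2(value + 1) with limma 3.58.1 in R 4.3.3 (4 group means, 16 residual degrees of freedom, trend and robust options). Contrasts were 6 °C against 22 °C in each gate, how far those effects differed, and the gates against each other at 6 °C and at 22 °C. P-values are two-sided, with Benjamini-Hochberg adjustment over all genes of a contrast. Folds are ratios of means. Log2 differences are between mean logs, where the pseudocount shrinks the change of low genes and a library at 0 widens it, so for Sema3e they exceed the fold. Checks on simulated data preceded the fit. Alternatives were other scalings, edgeR 4.0.16 and DESeq2 1.42.0 on recovered reads, and other pseudocounts and filters. Further ones were only the groups compared, a replicate block, and leaving out each library of the groups compared.

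The members and the gene lists were chosen with earlier results of these data known. Named beyond the members are, of each list, up to 3 called genes with the smallest p for cold in DPP4+ cells and up to 2 for the gates at 22 °C, defining markers, and the 3 genes nearest in pattern to each member. Values of Cacna2d1, Hgf, Tek, Pi16, Acta2 and Tagln were added after they were seen. Of the Nrp1 exon bases 0.818% lie in Mir1903, and the other members overlap no exon of another gene. Promoter windows and coordinates are from RefSeq (GRCm38.p6), exon lengths from GENCODE vM21.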

Additional observations from a re-analysis of the deposited data

Results flagged for a closer look

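In 3 of the 40 sets of 5 libraries checked (10 genes in 4 groups), 1 library stood far from the other 4 by the gap between neighbours relative to the whole range, and chance gives about 1 in 20. Sema3d was at 906 normalized reads in library 1 of the DPP4+ cells at 22 °C, below the other 4, which lay between 1112 and 1197. Sema3e was at 0 in library 3 of the DPP4- cells at 22 °C, where the other 4 held 6.14 to 7.72. Nrp1 was at 1089 in library 5 of the DPP4+ cells at 6 °C, below 1302 to 1359 in the other 4, and the log2 difference of Nrp1 with cold in DPP4+ cells ran from -0.43 to -0.35 over the libraries left out in turn.

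The cold effect differed between DPP4+ and DPP4- cells, by the test of the difference itself (limma), for 4 of the 10 genes. The difference was called higher for 1 and lower for 3, against 16.8% and 16.4% of all tested genes, so such a call was common. The difference was 0.76 on the log2 scale for Sema3c, -1.21 for Sema3f, -1.87 for Nrp2 and -1.76 for Plxnd1.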

How the results depend on the processing

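There were 12 alternatives, not all of which apply to every comparison. Libraries of the groups compared were also left out in turn, 10 for 2 groups and 20 for the difference of the cold effects. Of the 30 called differences of the 10 genes, 26 kept their call and direction in every alternative made for them. The call was lost in some for 4 (Sema3b with cold in DPP4- cells, and Sema3b, Sema3g and Plxnd1 between the gates at 22 °C), and 0 turned. The number called lower in DPP4+ cells at 22 °C was 2 with library totals set equal, and the number lower with cold in DPP4- cells was 1 with TMM factors, quantile normalization, edgeR or no filter, and 1 to 3 over libraries left out. The number with a more positive cold effect in DPP4+ cells was 2 with DESeq2, and 1 to 2 over libraries left out. Sema3g had no value at a mean of at least 50. Setting library totals equal moved the median log2 difference of all genes between the gates to 0.64 at 22 °C and 0.50 at 6 °C, against 0.030 and 0.032. With it 9158 genes were higher and 2001 lower at 22 °C, against 5052 and 4730, and 1142 genes were called with cold in DPP4- cells, against 681. With only the groups compared that count was 392. Relative to the moved median, Plxnd1 was at -0.82 and Sema3g at -1.24 at 22 °C. The cause of these shifts was not tested.

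No value that changed sign was called before or after the change. Sema3f with cold in DPP4- cells was 0.087 with totals set equal, 0.031 with edgeR and 0.030 with DESeq2. The difference of the cold effects of Sema3e was -0.077 with totals set equal, -0.0015 with TMM factors, -0.11 with quantile normalization, -0.048 with edgeR and -0.034 with DESeq2. Sema3b with cold in DPP4+ cells was 0.0051 with edgeR and 0.00038 with DESeq2, and Sema3e with cold in DPP4- cells was 0.011 with edgeR. Over libraries left out, the cold effect in DPP4+ cells ran from -0.13 to 0.11 for Sema3b, from -0.22 to 0.016 for Sema3e and from -0.17 to 0.32 for Sema3g. In DPP4- cells it ran from -0.72 to 0.45 for Sema3e, from -0.13 to 0.16 for Sema3f and from -0.52 to 0.12 for Sema3g, and the difference of the cold effects from -0.52 to 0.65 for Sema3e and from -0.092 to 0.020 for Nrp1.

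The replicate numbers are not said to mark a shared animal or day. Same-numbered libraries of the 2 gates had deviations correlated at 0.017 to 0.107 at 6 °C and 0.029 to 0.156 at 22 °C. The closest DPP4- library had the same number for 4 of 5 DPP4+ libraries at 6 °C and 2 of 5 at 22 °C. Between groups at different temperatures the correlations ran from -0.228 to 0.267, with 0 to 3 of 5 closest. Whether the gates shared animals was not tested. With the replicate block, or the replicate block within temperature, the number of genes with a more positive cold effect in DPP4+ cells was 2, since Sema3b was called (adjusted p = 0.0172 and 0.0289). Sema3a was called too (-0.47, adjusted p = 0.0388 and 0.0498), and Sema3g at 6 °C with the first (adjusted p = 0.0489). Calls over all genes with cold in DPP4+ cells were 6013 with the block and 6023 without it. Depth limits Sema3e in DPP4- cells and Sema3g, with 20 to 67 reads per group.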
